A study of Mus musculus with 9 samples.

Results

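The tripartite motif (TRIM) genes of the mouse were examined in colon epithelium of mice labelled DKO, set against mice labelled Wt, in a study of the caudal homeobox factors Cdx1 and Cdx2. A gene was taken when its symbol in the authors' deposited gene table was Trim with a number and at most 1 letter, when it was protein-coding, and when it was not 1 of the 6 TRIM genes of the H2 region on chromosome 17. This rule used names and positions only, and it gave 41 genes of 17511 in the table. RNA-seq, ATAC-seq of open chromatin and ChIP-seq of Cdx2 were run on colon epithelial cells that EDTA had released from fresh tissue. By strain tag the DKO libraries were Cdx1-/-Cdx2f/f vill (+) and the Wt libraries Cdx1-/-Cdx2f/f vill (-), with 2 libraries per group for RNA and 2 for ATAC. Both groups had received tamoxifen for 6 days, so the Cdx1 null allele, the floxed Cdx2 allele and tamoxifen are shared by the Wt libraries as well. The ChIP sample was 1 library tagged vill (-) and untreated. Age and the driver behind the vill tag are not given in the labels used here. Whether the replicates are separate animals is not stated, so all p-values reflect just the variation among these libraries, which may be technical.

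Most TRIM proteins have a RING domain, B-boxes and a coiled coil, followed by a variable C-terminal part, though some lack the RING domain. The RING domain takes ubiquitin from an E2 conjugating enzyme and passes it to a target, which makes most family members E3 ubiquitin ligases. Many act in innate immunity, where they restrict viruses or tune the signals that induce interferon and NF-kB, and several are themselves induced by interferon, while others act as transcription cofactors, on the cytoskeleton or on membranes.

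The sequences below carry letters shared by several of the genes that fell, those of the interferon-stimulated response element (ISRE), to which interferon regulatory factors bind. A start window, from 250 bases before to 50 after an annotated gene start, was available from RefSeq (GRCm38.p6) for 31 of the 41 genes. Both strands were searched for GAAANNGAAA, which reads TTTCNNTTTC on the other strand. It occurred in a start window of 8 of the 31 TRIM genes (25.8%), against 458 of 12108 genes of the table with a window (3.78%) and 3.44% of all 32851 windows of the reference. Of the 8, all except Trim2 and Trim21 belong to a group of TRIM genes that lie close together on chromosome 7. Each stretch of 30 bases is shown 5′ to 3′ on the strand of its gene, with the matching letters in capitals.

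Trim12c, chr7:104353359-104353388, minus strand: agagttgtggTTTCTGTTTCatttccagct
Trim5, chr7:104288136-104288165, minus strand: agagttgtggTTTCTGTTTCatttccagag
Trim12a, chr7:104315466-104315495, minus strand: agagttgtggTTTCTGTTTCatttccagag
Trim30d, chr7:104507871-104507900, minus strand: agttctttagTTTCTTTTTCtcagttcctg
Trim30a, chr7:104465210-104465239, minus strand: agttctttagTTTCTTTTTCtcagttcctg
Trim34a, chr7:104244457-104244486, plus strand: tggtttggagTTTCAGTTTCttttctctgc
Trim21, chr7:102565447-102565476, minus strand: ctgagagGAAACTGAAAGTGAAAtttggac
Trim2, chr3:84212791-84212820, minus strand: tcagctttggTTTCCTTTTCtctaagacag

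The match began 29 bases before the start used for the window in Trim12c, 49 before it in Trim5, 36 before it in Trim30a and 41 before it in Trim30d. In Trim12a, Trim34a, Trim21 and Trim2 it began at base 11, 11, 14 and 29 after the start. The start used for the window lies inside the annotated gene span in Trim5, Trim12a, Trim12c, Trim30d and Trim34a. Trim30a had a further match at another annotated start, and Trim2 had its match at 1 of 5 starts, inside the gene. Trim21 held 2 overlapping matches in a run of 16 bases. The windows of Trim5 and Trim12a shared 241 aligned bases, all identical, so the same letters fall before the start in one and after it in the other by annotation alone. Trim12c was identical to Trim5 at 93.9% of 280 aligned bases, and Trim30a to Trim30d at 93.9% of 295. Reads from such close copies could be split among them by the authors' counting, so the single values of Trim5, Trim12a, Trim12c, Trim30a and Trim30d are uncertain. Identity of the transcripts was not measured, for these or for the other genes of the group.

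No file used here pairs transcripts with genes, so a TRIM level per RNA library cannot be given and each RNA value below is the authors'. Their mean normalized count averages all 4 RNA libraries, and their log2 fold change is DKO over Wt, possibly shrunken toward 0 where counts are low. A gene counts as called where the authors' adjusted p was under 0.05. Estimated reads came to 21197446 and 20069555 in the DKO and to 16403301 and 25494309 in the Wt RNA libraries.

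Within the family some genes rose and others fell. The authors' deposited table called 23 of the 41 TRIM genes (56.1%), 10 higher in DKO (24.4%) and 13 lower (31.7%). Over all genes it called 36.8%, with 18.5% higher and 18.3% lower. With p readjusted over genes that average at least 50 normalized counts, 11 of 37 TRIM genes were higher and 11 lower (59.5% called), against backgrounds of 25.5% higher, 20.2% lower and 45.7% in all. Over the 41 genes the authors' deposited table had a median log2 fold change of -0.17, beside -0.02 over all genes, and the median size of change was 0.74, beside 0.55. By the authors' deposited table, 7 of the called TRIM genes were higher by 2-fold or more and 9 were lower by as much. Over all genes, 11% were called and higher by this size, and 13.2% were called and lower by it. The 18 genes not called lay between -0.58 and 0.59 on the log2 scale of the authors' deposited table.

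**Figure D1:**
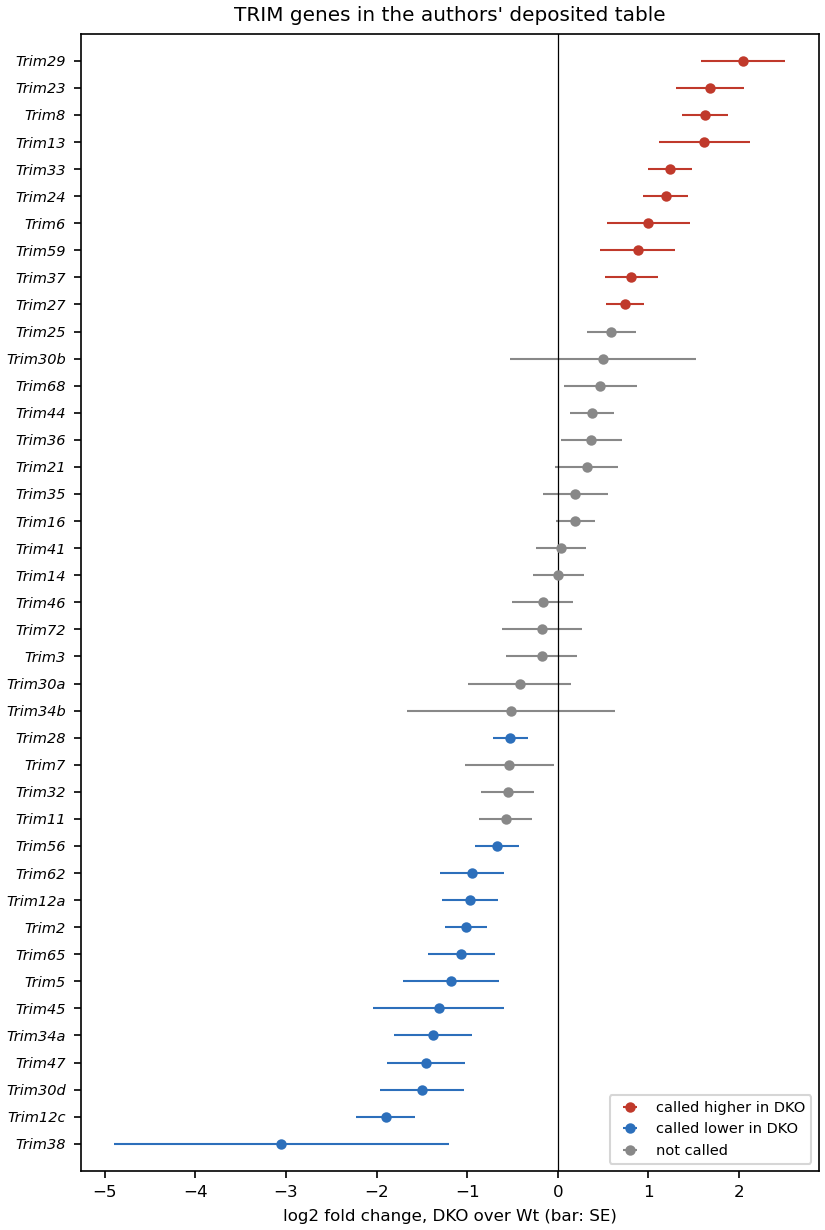
Log2 fold change of each of the 41 TRIM genes, DKO over Wt, from the authors' deposited table, with its SE as a bar. The 10 genes called higher run from 0.74 (Trim27) to 2.04 (Trim29), and the 13 called lower from -0.52 (Trim28) to -3.05 (Trim38).

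A group of 9 TRIM genes on chromosome 7 (104218795 to 104507853, GRCm38) held many of the lower ones. It includes mouse relatives of primate TRIM5, a factor that binds incoming retroviral capsids. Of the 9, the authors' deposited table had 5 lower, 1 higher and 3 not called, and their median log2 fold change was -0.97. The other 32 TRIM genes stood at 8 lower and 9 higher by the authors' deposited table, with a median of 0.11.

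Trim12c, a close relative of Trim5, fell by 1.90 on the log2 scale of the authors' deposited table (adjusted p = 1.70e-08, SE 0.33), a 3.73-fold lower level in DKO. Its mean in the authors' deposited table was 335 normalized counts. For Trim30d, a close copy of the NF-kB regulator Trim30a, the authors' deposited table gave -1.50 (adjusted p = 0.00159, SE 0.46) and a mean of 249. Trim34a, whose human counterpart acts with TRIM5 against lentiviruses, had -1.38 there (adjusted p = 0.00188, SE 0.43) and a mean of 185, again by the authors' deposited table. Each of these genes was lower by at least 2.60-fold by the authors' deposited table.

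Trim12a and Trim5, whose start sequences are identical over the aligned bases, both fell. The authors' deposited table gave Trim12a -0.97 (adjusted p = 0.00341, SE 0.31) and a mean of 389. For Trim5 the authors' deposited table listed -1.18 (adjusted p = 0.0279, SE 0.53) and a mean of 62.1. Trim30a restrains NF-kB signalling in mouse macrophages. It was not called, at -0.42 by the authors' deposited table (adjusted p = 0.510, SE 0.57), although its 30 letters are the same as those of Trim30d.

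Trim6, at the edge of the group, went the other way. By the authors' deposited table this gene, whose human counterpart takes part in interferon signalling, rose by 1.00 (adjusted p = 0.0390, SE 0.46) with a mean of 124. Its window held no ISRE letters. Trim34b and Trim30b averaged 3.75 and 6.53 normalized counts by the authors' deposited table, were not called, and had no match either.

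**Figure D2:**
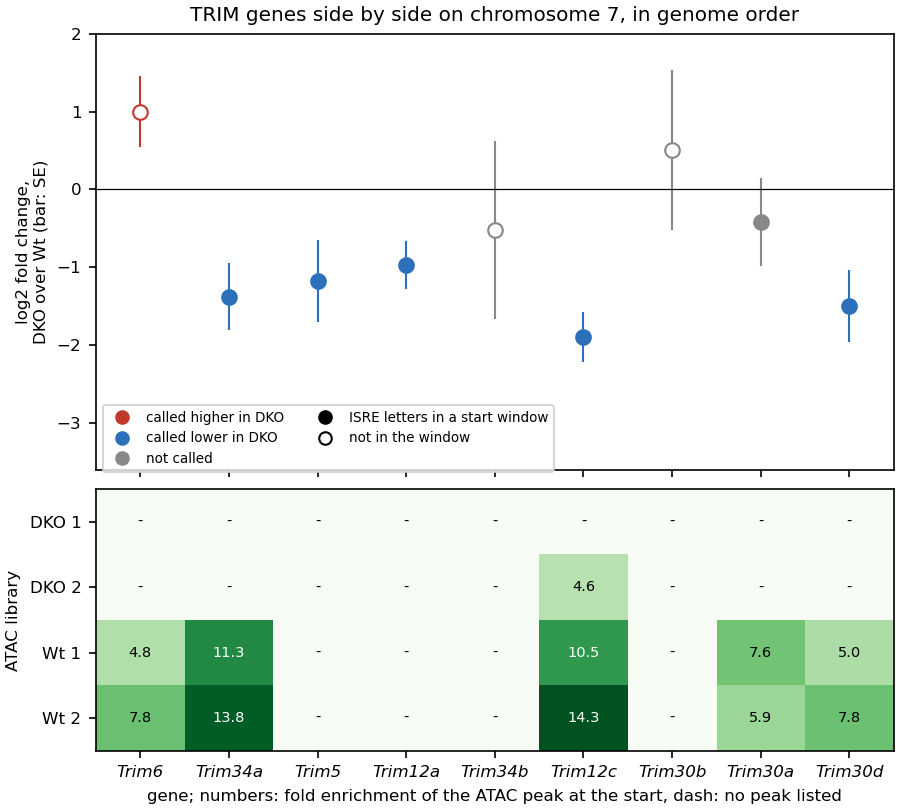
The upper panel gives the log2 fold change, DKO over Wt, with its SE for 9 TRIM genes close together on chromosome 7, filled where a start window holds the ISRE letters on either strand. The lower panel gives the fold enrichment of the ATAC peak at each start in every library. All 5 genes called lower have filled points, and so has Trim30a, which was not called. The single start with a peak in a DKO list is that of Trim12c (4.57).

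Counted by letters, the 8 TRIM genes with a match were 6 lower, 0 higher and 2 not called (Trim21 and Trim30a) by the authors' deposited table. The 23 with a window and no match were 6 lower, 7 higher and 10 not called. Over all 458 genes with a match, 20.5% were lower and 19.2% higher, beside 19.4% and 20.3% over every gene with a window. The 6 lower genes are not independent, since 5 of them lie in the chromosome 7 group. A match is a run of letters, and binding to it was not tested.

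The ATAC lists can be read library by library at the starts of the chromosome 7 group, though no start there had a peak in every list. The fold enrichment over background of the peak at the Trim12c start was 4.57 in DKO replicate 2, 10.5 in Wt replicate 1 and 14.3 in Wt replicate 2, and no peak was listed in DKO replicate 1. At the Trim34a start neither DKO list had a peak, and the Wt lists had peaks of 11.3 and 13.8. Trim30d, Trim30a and Trim6 also had no DKO peak at their starts. Their Wt peaks were 5.05 and 7.78 for Trim30d, 7.56 and 5.89 for Trim30a, and 4.83 and 7.81 for Trim6. The listing was thus alike for Trim6, which rose in RNA, and Trim30d, which fell. No list held a peak at the starts of Trim5, Trim12a, Trim34b or Trim30b.

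Trim12c had the lowest adjusted p of this group, and the 250 bases before its start are printed to show where the letters lie (chr7:104353350-104353599, minus strand, GRCm38.p6, ISRE letters in capitals).

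Trim12c: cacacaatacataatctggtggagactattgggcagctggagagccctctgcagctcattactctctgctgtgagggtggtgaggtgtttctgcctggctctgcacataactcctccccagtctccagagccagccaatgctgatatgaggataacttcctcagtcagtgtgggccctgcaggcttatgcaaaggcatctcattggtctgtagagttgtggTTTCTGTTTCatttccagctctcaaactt

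Other antiviral and innate signalling members also went both ways. This role list, which includes the chromosome 7 genes, counted 4 higher, 9 lower and 9 not called of 22, and its median was -0.21 by the authors' deposited table. Over all genes 18.5% were higher and 18.3% lower. Trim65, a ligase of the RNA sensor MDA5, fell by 1.06 (adjusted p = 0.00748, SE 0.37), and the authors' deposited table gave it a mean of 203. Trim56, which promotes STING signalling, fell by 0.67 (adjusted p = 0.0167, SE 0.25) with a mean of 633, both from the authors' deposited table. Trim62, which acts on the adaptor CARD9, was at -0.95 in the authors' deposited table (adjusted p = 0.0137, SE 0.35). For Trim38, which limits Toll-like receptor signalling, the authors' deposited table gave -3.05 (adjusted p = 0.0191) with an SE of 1.85. Trim38 averaged 11.9 normalized counts by the authors' deposited table, so the size of its fall is loosely set.

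Trim8, Trim23 and Trim13 rose. Trim8 activates the kinase TAK1 upstream of NF-kB, and by the authors' deposited table it rose by 1.62 (adjusted p = 8.06e-10, SE 0.25), 3.08-fold, with a mean of 2232. Trim23, which carries an ADP-ribosylation factor domain, rose by 1.68 (adjusted p = 1.41e-05, SE 0.37), with a mean of 169 by the authors' deposited table. Trim13 is anchored in the endoplasmic reticulum, and the authors' deposited table had it at 1.62 (adjusted p = 0.00163, SE 0.50) with a mean of 85.8.

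Trim25, which ubiquitinates the RNA sensor RIG-I, did not pass the threshold, at 0.59 (adjusted p = 0.0563, SE 0.27) with a mean of 4471 by the authors' deposited table. With the authors' p readjusted over genes that average at least 50 normalized counts it was called higher, at an adjusted p of 0.0471, and over protein-coding genes it was not, at 0.0507. Trim41 was also not called, at 0.04 (adjusted p = 0.941, SE 0.28) with a mean of 1238 by the authors' deposited table. Trim21, the cytosolic antibody receptor, stood at 0.32 (adjusted p = 0.481, SE 0.35) in the authors' deposited table. The MAVS adaptor Trim14 was at 0.00, Trim35 at 0.20 and Trim68 at 0.47 by the authors' deposited table, none of them called.

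All 3 measured transcription cofactors of the family were called, though not in the same direction. Trim33 (TIF1-gamma), which acts on Smad signalling, rose by 1.24 by the authors' deposited table (adjusted p = 1.04e-06, SE 0.24), with a mean of 705. Trim24 (TIF1-alpha), a coregulator of nuclear receptors, rose by 1.19 (adjusted p = 9.15e-06, SE 0.25), and the authors' deposited table gave a mean of 879. Trim28 (KAP1) is the corepressor that KRAB zinc finger proteins recruit to silence transposable elements, and by the authors' deposited table it fell by 0.52 (adjusted p = 0.0166, SE 0.19) with a mean of 3554. Silencing partners of Trim28 had a median of -0.21 by the authors' deposited table, which called 3 of the 11 higher and 2 of them lower. Over all genes the shares were 18.5% higher and 18.3% lower. The heterochromatin protein gene Cbx3 stood at 1.03 (adjusted p = 5.91e-06) and Tasor, of the HUSH complex, at -1.56 (adjusted p = 3.39e-05), both by the authors' deposited table.

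Trim29 had the highest fold change of the family. This member lacks a RING domain and is known from stratified epithelia. By the authors' deposited table it rose by 2.04 (adjusted p = 1.84e-05, SE 0.47), 4.12-fold, with a mean of 101. The other RING-less members, Trim14, Trim16 and Trim44, were not called, with Trim16 at 0.19 (adjusted p = 0.519, SE 0.22) and a mean of 1689 by the authors' deposited table. Both transmembrane members rose, Trim13 as given above and Trim59 by 0.88 (adjusted p = 0.0484, SE 0.41) by the authors' deposited table.

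Of the NHL-repeat members, Trim2 fell, and Trim3 and Trim32 were not called. Trim2 is a ligase of neurofilament light chain in mouse neurons, and by the authors' deposited table it fell by 1.01 (adjusted p = 6.22e-05, SE 0.23) with a mean of 2189. Trim32 stood at -0.55 (adjusted p = 0.101) and Trim3 at -0.18 (adjusted p = 0.744), by the authors' deposited table. Microtubule-associated Trim36 and Trim46 and the membrane repair gene Trim72 were at 0.37, -0.17 and -0.18 by the authors' deposited table, none called.

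A further 6 members belong to no role list, and 2 of them rose while 2 fell. Trim27, which acts in retromer-dependent transport in human cells, rose by 0.74 (adjusted p = 0.00126, SE 0.21) with a mean of 1393 by the authors' deposited table. Trim37, a ligase of centrosomes and peroxisomes, had 0.81 in the authors' deposited table (adjusted p = 0.0117, SE 0.29). Trim47, which lies near Trim65 on chromosome 11, fell by 1.46 by the authors' deposited table (adjusted p = 0.000960, SE 0.43). Trim45 fell by 1.31 (adjusted p = 0.0491, SE 0.73), and its mean in the authors' deposited table was 36.1. Trim7 and Trim11 were not called, at -0.54 and -0.58 by the authors' deposited table.

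The E2 enzymes that supply such ligases stood on the higher side. Their median log2 fold change was 0.59 by the authors' deposited table, and 8 of the 15 were called higher and 0 lower. For this list and those that follow, the shares over all genes were 18.5% higher and 18.3% lower. Each E2 gene averaged at least 212 normalized counts. Of all genes averaging at least 50, with p readjusted, 25.5% were higher and 20.2% lower. Ube2d3, a general partner of RING ligases, stood at 1.47 (adjusted p = 9.24e-11) and Ube2e3 at 1.86 (adjusted p = 3.13e-09), both by the authors' deposited table. Relatives that have a TRIM architecture under another name counted 1 higher and 0 lower of 7 measured. That gene, the microtubule-bound ligase Mid1, was at 2.27 (adjusted p = 1.89e-07), and Rnf135, which acts on RIG-I, at 0.65 (adjusted p = 0.127), by the authors' deposited table.

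Type I interferon targets counted 0 higher and 4 lower of 15, and the authors' deposited table gave them a median of -0.49. The double-stranded RNA sensor Oas1a stood at -1.40 (adjusted p = 7.81e-05) and its relative Oasl2 at -1.48 (adjusted p = 0.000900) by the authors' deposited table. The 11 others did not pass the test. Nucleic acid sensing genes counted 5 higher and 5 lower of 16, and the median by the authors' deposited table was -0.37. The ligase Traf6 was at 2.14 (adjusted p = 2.51e-18), and the interferon regulatory factor Irf7 at -2.20 (adjusted p = 8.75e-14), by the authors' deposited table.

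**Figure D3:**
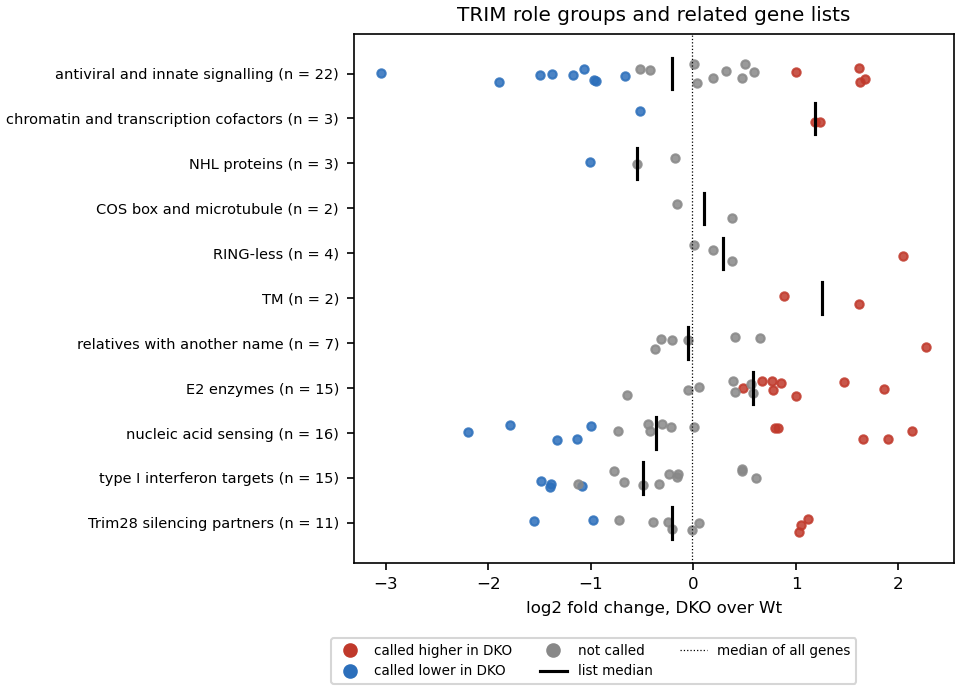
Points give the log2 fold change, DKO over Wt, of each measured gene in 6 TRIM role groups (TM, transmembrane) and in 5 related lists, with the median of each list as a bar and that of all genes as a dotted line. E2 enzymes have 8 points called higher and 0 lower, and type I interferon targets 0 higher and 4 lower.

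Markers of other cells also differed between the groups. All 13 markers of muscle, stroma and endothelium fell, and the authors' deposited table put their median at -5.27. Among B and plasma cell markers 5 of 6 fell, and the median by the authors' deposited table was -2.94. Of 5 T cell markers 1 rose, and of 7 myeloid markers 3 rose and 1 fell, while 3 of 5 neuron and glia markers fell. Each of 6 epithelial markers averaged 16677 normalized counts or more by the authors' deposited table, and 2 of them rose while 2 fell. All 4 colonocyte markers fell, with a median of -2.03 by the authors' deposited table. All listed markers were measured, and their summed level per group cannot be given from these means. The part of these cells in the TRIM changes was not tested. In bulk samples, fewer cells of a type and less RNA per cell cannot be told apart.

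Fewer TRIM starts had a listed ATAC peak in DKO than in Wt, and the same was seen over all genes. A start peak was listed for 7 and 14 of the 41 TRIM genes in DKO replicates 1 and 2, against 31 and 33 in Wt replicates 1 and 2. These are 17.1% and 34.1% in DKO and 75.6% and 80.5% in Wt. Over the 16370 genes with a position, the shares were 17.8% and 32.6% in DKO and 70.2% and 72.3% in Wt. Both DKO values lay under both Wt values, for TRIM genes and for all genes. The DKO lists held 40101 and 23961 peaks, those of Wt 48163 and 53943. With 2 lists against 2, an exact permutation test cannot go below a two-sided p of 0.333. For the 10 TRIM genes without a start window, 1000 bases around either end of the gene were used.

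**Figure D4:**
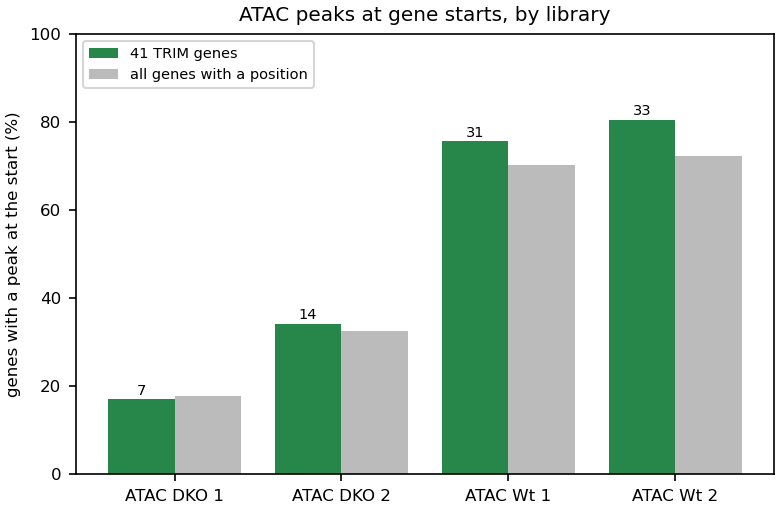
Share of the 41 TRIM genes (green, with the number of genes) and of all 16370 genes with a position (grey) that have an ATAC peak at the start, for each ATAC library. The green and grey bars stand at similar heights within each library, and both are lower in the DKO libraries.

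Start peaks were listed in all 4 libraries for 6 TRIM genes, namely Trim8, Trim23, Trim24, Trim33, Trim36 and Trim44. They made up 14.6% of the TRIM genes, beside 13.7% of all genes with a position. Trim8, Trim33 and Trim36 had no start window, so a peak near either end of the gene counted for them. For Trim8 and Trim36 the peaks of the 4 libraries did not all overlap, so they do not mark 1 site listed in every library. Among genes with a start window, the pattern held for 3 of 31 TRIM genes (9.68%), beside 12.8% of all genes. Of the 6 genes, 4 rose in RNA and 0 fell by the authors' deposited table. Over all 2247 genes of this kind 33.8% rose and 12% fell, whereas of the 3994 genes with no start peak in any list 12.3% rose and 20.9% fell. Among the 8 TRIM genes with none, 0 rose and 4 fell. The 16 TRIM genes with a peak in both Wt lists and neither DKO list were 3 higher, 5 lower and 8 not called, where 17.2% of all 5696 genes of this kind were higher and 19.9% lower.

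At the Trim24 start the peaks had fold enrichments of 3.77 and 4.55 in DKO against 10.4 and 11.2 in Wt. Peaks at the ends of Trim33 had 5.27 and 5.12 in DKO against 7.90 and 8.70 in Wt. For Trim8 the highest peaks had 3.86 and 2.84 in DKO against 3.30 and 3.50 in Wt, but these DKO and Wt peaks did not overlap. Where the DKO peaks lay, Wt replicate 1 listed no peak and Wt replicate 2 had peaks of 3.21 and 3.22. Both DKO values thus lay under both Wt values for Trim24 and Trim33, and the Trim8 values do not compare the groups at 1 place. Trim8, Trim24 and Trim33 all rose in RNA. Trim28, the cofactor that fell, had a start peak of 3.99 in DKO replicate 2, none in DKO replicate 1, and 5.60 and 5.77 in Wt. Trim13 had no DKO start peak against 9.70 and 9.53 in Wt, and it rose. Trim29, with the highest fold change in RNA, had no DKO peak within 10000 bases, against 3 and 4 in the Wt lists.

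Regions listed in both Wt lists and neither DKO list lay within 10000 bases of 29 of the 41 genes (70.7%), beside 67.1% of all genes. Of those 29, 8 were called lower, 8 higher and 13 not called, where 19.6% of the 10980 genes with such a region were lower and 20.1% higher. Regions listed in both DKO lists and neither Wt list lay near 5 TRIM genes (12.2%), beside 13.9% of all genes. They were Trim30d, Trim45 and Trim62, which fell in RNA, and Trim14 and Trim21, which were not called. Over all genes with a position, 18.8% were lower and 19.4% higher. The shares among genes near regions listed only in DKO are not given here, and a link between such regions and RNA was not tested. The number of TRIM genes near such regions was 14 without DKO replicate 1, beside 32.7% of all genes, and 18 without DKO replicate 2, beside 51.2%. Neighbouring genes share some regions, so these counts are not independent.

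A Cdx2 peak of the Wt ChIP library lay within 10000 bases of 6 TRIM genes (14.6%), beside 18.1% of all genes. They were Trim2, Trim23, Trim24, Trim25, Trim36 and Trim45, of which 2 rose, 2 fell and 2 were not called. No gene of the chromosome 7 group was among them. Over all genes with a position, 19.4% were higher and 18.8% lower. The shares among genes with a Cdx2 peak near are not given here. Of the 10 peaks near these 6 TRIM genes, 7 overlapped no ATAC peak in any library, and 3 overlapped peaks in both Wt lists and none in DKO. The same split over the whole Cdx2 list is not given here, so it cannot be read as particular to TRIM genes. Fold enrichments are the authors', and ranks are by −log10 q within their list of 5100 peaks on assembled chromosomes. The peak inside Trim24 (chr6:37925175-37925473) ranked 46 with a fold enrichment of 14.2, and no ATAC list had a peak there. Trim2 held 3 peaks, at ranks 166, 319 and 1932, and those at ranks 319 and 1932 overlapped no ATAC peak. The one at rank 166 (chr3:84257985-84258404, fold enrichment 9.28) overlapped no ATAC peak in DKO and peaks of 4.13 and 4.03 in Wt. A peak 1879 bases from Trim25 (chr11:89022173-89022464, fold enrichment 6.33) likewise overlapped no DKO peak and Wt peaks of 4.17 and 4.04.

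Trim23 had its Cdx2 peak 256 bases from the gene (chr13:104178308-104178583, fold enrichment 6.21, rank 2271). The Cdx2 peak overlapped no ATAC peak in DKO and Wt peaks of 4.59 and 11.9, the latter also covering the start. At the Trim23 start the ATAC peaks were 3.71 and 4.27 in DKO against 12.4 and 11.9 in Wt, so the start stayed listed in every library at a lower enrichment in DKO. Its start window held a match to TTTATNG or its reverse CNATAAA, letters that resemble Cdx2 binding sites. Such a match occurred in 5 of the 31 TRIM genes with a window (16.1%) and 9.14% of all genes with one. The 250 bases before the start, which begin just past the Cdx2 peak, are printed to show the match in capitals (chr13:104178589-104178838, plus strand, GRCm38.p6).

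Trim23: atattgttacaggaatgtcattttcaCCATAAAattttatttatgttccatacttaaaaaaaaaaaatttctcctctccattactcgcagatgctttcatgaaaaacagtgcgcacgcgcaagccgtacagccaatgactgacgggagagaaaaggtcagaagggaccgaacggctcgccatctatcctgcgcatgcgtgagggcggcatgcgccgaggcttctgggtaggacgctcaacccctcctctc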

How the data were processed

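The authors' estimated counts for each transcript, in the layout that Salmon writes per the file headers, were used for their totals only. The mean normalized count of their gene table is a signal that the authors scaled between libraries, per the file headers. Log2 fold changes with SE, p-values and adjusted p-values were computed by the authors too, and the submitters' processing notes name DESeq2. Those folds may be shrunken. For Trim38 (-3.05, SE 1.85) and Trim34b (-0.52, SE 1.14) the authors' p was lower than the ratio of fold to SE would give. The SE and the p-value of a gene should thus not be read as 1 test. Peak lists gave a fold enrichment ratio and −log10 p and q per peak, written by the authors' caller for each library, per the file headers. The notes name Salmon 1.3.0, MACS2, BWA, Bowtie2 and fastp and the builds mm10 and GRCm38. Settings, the ChIP control and any transposase read shift are not stated by any source used here.

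No own count test was run, since nothing used here pairs transcripts with genes. The gene-level fit that had been planned is therefore not reported. Genes were placed by symbol, then Entrez number, in RefSeq for GRCm38.p6, and 16370 of 17511 had a position. The Entrez number that the gene table gives for Trim30b belongs to another RefSeq gene, so its position is uncertain. Overlap meant at least 1 base. ATAC regions were unions of overlapping peaks. The overlap, adjustment and motif steps were tested on simulated data. Python 3.11.15, numpy 2.4.6, pandas 2.3.3 and biopython 1.88 were used. Every called TRIM gene was named, with uncalled ones of a mean of at least 1000 normalized counts, and the 2 lowest p values of each related list. Other TRIM genes were named after their values were seen. The TRIM genes and all lists were chosen with earlier results of these data known.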

Additional observations from a re-analysis of the deposited data

How the results depend on the processing

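No paired analysis was possible because the gene values come from the authors' table and no fit per library could be made for a named gene, so no RNA library could be left out either. The gene-level edgeR and DESeq2 alternatives were not run for the same reason. With p readjusted over protein-coding genes the calls stayed at 10 higher and 13 lower, beside 21.5% and 20.3% of those genes. At an adjusted p under 0.01, 7 TRIM genes were higher and 7 lower, beside 13.5% and 13% of all genes. The median log2 fold change was 0.00 over TRIM genes averaging 50 normalized counts or more and -0.15 after centring on all genes, and centring changed the sign of 0 called genes. A window of 50000 bases put Cdx2 peaks near 11 TRIM genes, beside 35.6% of all genes. Regions listed only in DKO lay near 3 TRIM genes at 5000 bases, 12 at 50000 bases and 0 at a −log10 q of at least 5, beside 11.2%, 31.6% and 1.99% of all genes. Leaving out each ATAC library in turn gave 5 to 18 such genes, beside 14.6% to 51.2% of all genes. For regions listed only in Wt it gave 29 to 33, beside 68.8% to 77.8% of all genes. With the 20000 best peaks of each list, regions listed only in Wt lay near 19 TRIM genes, beside 48.4% of all genes. Start peaks in DKO replicate 1 numbered 11 within 1000 bases of the start, 3 at the stricter q and 4 in the 20000 best, beside 27.5%, 2.5% and 9.34% of all genes, and those in DKO replicate 2 numbered 3 at the stricter q, beside 13.1%. The cause of these shifts was not tested. Peak lists give no read depth, so an unlisted peak is not shown to be absent.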
